A study of Mus musculus with 57 samples.

Results

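Toll-like receptors, NOD-like receptors and the inflammasome proteins that act with them were followed through mouse distal colon in 6 groups of samples. The genes were chosen by symbol alone: those named Tlr, Nlrp, Nlrc, Naip, Nod1, Nod2 or Nlrx1, together with Aim2, Pycard, Casp1, Casp4, Myd88 and Cd14. This gave 48 genes of the 22180 that the array names by a single symbol, each represented by its brightest probe set. Ripk2, Naip1 and Naip7 were not analysed here. The study asked what inactivation of the insulin receptor in the intestinal epithelium does to the colon, with or without chemically induced colitis and tumors.

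All mice were of the C57BL/6 strain and 18 to 24 weeks old, and the treatment protocol names females. INSRfl/fl mice, called fl/fl here, carry loxP sites in the insulin receptor gene. Their villin-CRE-INSR-/- littermates, called knockout here, have lost that gene in the cells that express Cre from the villin promoter, which is active in intestinal epithelium, so immune and stromal cells keep it. AOM+DSS mice received 1 injection of azoxymethane (AOM, 7.4 mg/kg), a carcinogen, and then 3% dextran sulfate sodium (DSS), which injures the colon lining, for 7 days in week 2. Tissue was taken in week 5. There were 10 arrays each of untreated fl/fl colon, untreated knockout colon, fl/fl colon after AOM+DSS and knockout colon after AOM+DSS, 8 of fl/fl tumors and 9 of knockout tumors, and each array is labelled as a separate biological replicate. The labels do not tie the tumors to the colon samples of single mice.

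Toll-like receptors bind microbial products at the cell surface or inside endosomes, and most of them signal through the adaptor Myd88 to NF-kappaB and interferon regulatory factors. NOD-like receptors survey the cytosol. Several of them assemble inflammasomes, in which the adaptor Pycard links a sensor to caspase-1, the protease that matures interleukin-1 beta and interleukin-18. In the colon these receptors stand between the microbiota and both the epithelium and the immune cells beneath it.

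The arrays were alike in overall signal, with medians between 5.923 and 6.039 on the log2 scale. Insr itself fell by 0.94 ± 0.10 (SE) in untreated knockout colon (adjusted p = 6.71e-09), with no overlap between the genotypes, and by 0.65 ± 0.11 in knockout tumors (adjusted p = 0.00234), where the genotypes overlapped. Markers of colon epithelium were bright in every group, with a list mean between 10.96 and 11.72 over the single arrays. Of the 48 genes, 34 had a mean of at least 5 over the 57 arrays. The other 14 were dimmer, namely 11 of the 13 germline-type Nlrps and the inflammasome sensors Nlrp1a, Nlrp1c-ps and Naip3. All values below are log2 expression values made by RMA, so a difference of 1 is a doubling, and levels of different genes are not comparable.

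After AOM+DSS most endosomal receptors and several surface receptors rose, and in tumors Nlrp6, the Naip genes that were not dim, Nod1, Tlr1, Tlr5, Casp1 and Pycard fell. In fl/fl colon, 16 of the 48 genes (33.3%) passed an adjusted p of 0.05 between AOM+DSS and untreated samples, where 22.7% of all genes did. Of these, 12 rose (12.2% of all genes rose) and 4 fell (10.5% of all genes fell). With every array shifted to 1 median, that split was 14 higher and 2 lower. In knockout colon 20 of 48 (41.7%, against 30.2% of all genes) passed, 16 higher and 4 lower (16.0% and 14.2% of all genes). Between fl/fl tumors and AOM+DSS colon, 23 of 48 (47.9%, against 41.2% of all genes) passed, of which 7 rose and 16 fell (21.0% and 20.2% of all genes). In knockout mice 24 of 48 (50%, against 42.9%) passed, 4 higher and 20 lower (21.5% and 21.4% of all genes). The shares of the 48 genes in tumors were thus close to the background, and the direction of the calls was uneven. The median change of the 48 genes was 0.04 and 0.12 after AOM+DSS in fl/fl and knockout colon (all genes, -0.04 and -0.04) and -0.08 and -0.08 in tumors (all genes, 0.02 and 0.0020).

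**Figure D1:**
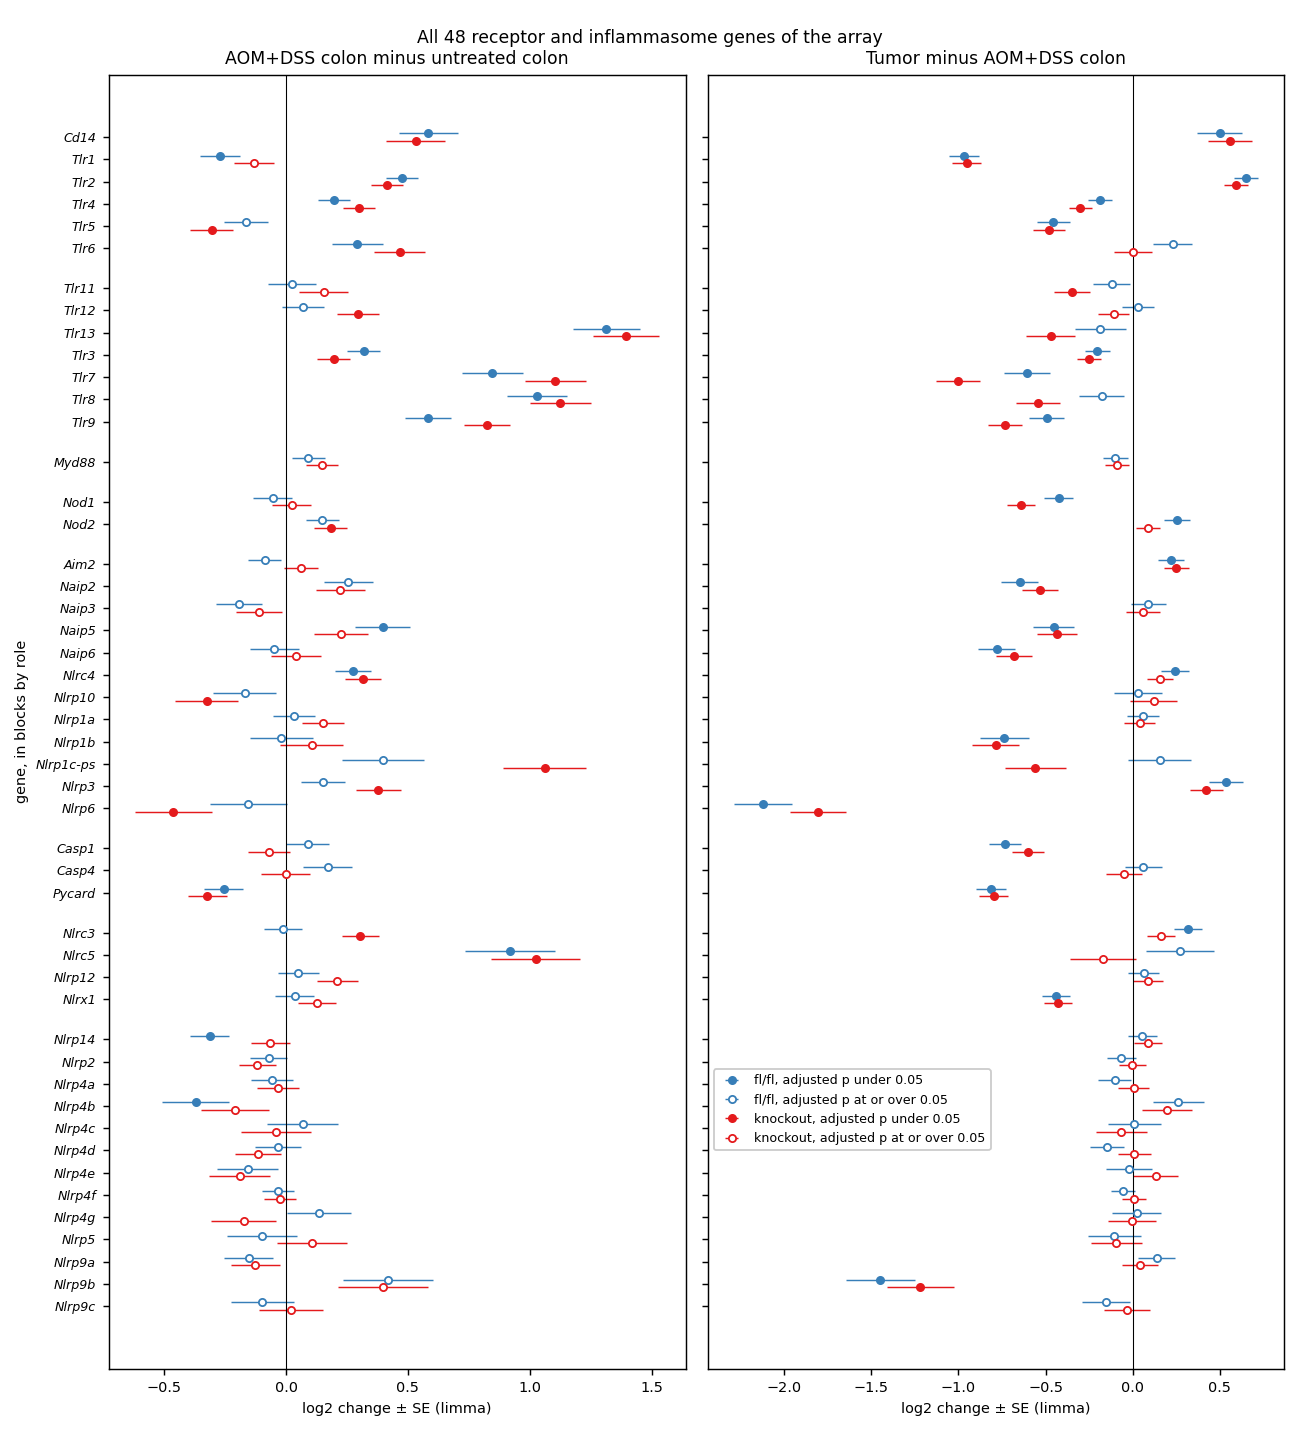
Each row is 1 of the 48 genes, in blocks by role, and the horizontal axis is the log2 change with its standard error, after AOM+DSS on the left and in tumors against AOM+DSS colon on the right. Filled points passed an adjusted p of 0.05. Tlr13 lies farthest right after AOM+DSS (1.31 in fl/fl and 1.40 in knockout) and Nlrp6 farthest left in tumors (-2.12 and -1.81).

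The fl/fl and knockout comparisons use different arrays. After AOM+DSS, 12 genes passed in the same direction in both genotypes, which is 75.0% of the 16 fl/fl calls and 60.0% of the 20 knockout calls. They were Cd14, Nlrc4, Nlrc5, Tlr2, Tlr3, Tlr4, Tlr6, Tlr7, Tlr8, Tlr9 and Tlr13, which rose, and Pycard, which fell. In tumors against AOM+DSS colon 20 genes did so (87.0% of 23 and 83.3% of 24), with Aim2, Cd14, Nlrp3 and Tlr2 higher and 16 lower. No gene passed in opposite directions. How many of all genes passed in both genotypes was not counted, so these overlaps describe the chosen genes alone. The AOM+DSS samples serve in both steps, so a rise at the first and a fall at the second are not independent measurements, and the values are given side by side.

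Tlr13 and Tlr8, both endosomal receptors, had the largest rises of the 48 genes after AOM+DSS in either genotype. Of the 7 endosomal receptors (Tlr3, Tlr7, Tlr8, Tlr9, Tlr11, Tlr12 and Tlr13), 5 rose in fl/fl and 6 in knockout colon (12.2% and 16.0% of all genes rose) and none fell, with a median change of 0.58 and 0.82. In tumors against AOM+DSS colon none rose (21.0% and 21.5% of all genes did), and 3 fell in fl/fl and 6 in knockout samples (20.2% and 21.4% of all genes). In bulk tissue such as this, fewer cells of a type and less RNA per cell cannot be told apart.

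Tlr13 recognises bacterial ribosomal RNA in mice. In fl/fl colon its lowest, median and highest values were 5.89, 6.14 and 6.60 untreated and 6.90, 7.53 and 8.23 after AOM+DSS. In knockout colon they were 6.09, 6.46 and 6.91 untreated and 7.15, 7.94 and 8.33 after AOM+DSS. Every AOM+DSS array of a genotype therefore lay above every untreated array of that genotype. Across all genes, the groups did not overlap for 1.06% in fl/fl and 4.74% in knockout colon, and among the 48 they did not overlap for 4 (Tlr1, Tlr2, Tlr8 and Tlr13) and 3 (Tlr8, Tlr9 and Tlr13). Tlr13 rose 2.49-fold in fl/fl colon (1.31 ± 0.14 SE, adjusted p = 4.18e-10) and 2.63-fold in knockout colon (1.40 ± 0.14, adjusted p = 1.27e-11). Tumors spanned 6.91 to 7.61 in fl/fl and 7.03 to 7.83 in knockout mice. Against AOM+DSS colon the change was -0.19 ± 0.15 in fl/fl (adjusted p = 0.337), and in knockout tumors Tlr13 fell by 0.47 ± 0.14 (adjusted p = 0.00454). It remained above untreated colon in tumors of both genotypes, by 1.13 ± 0.15 and 0.92 ± 0.14, with no overlap.

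Tlr8, an endosomal receptor of the RNA-sensing group, followed the same course after AOM+DSS. Its lowest, median and highest values went from 5.51, 5.92 and 6.21 to 6.36, 7.02 and 7.38 in fl/fl colon, and from 5.79, 6.26 and 6.61 to 6.87, 7.27 and 7.93 in knockout colon. The rise was 2.04-fold (1.03 ± 0.12, adjusted p = 1.25e-08) and 2.18-fold (1.13 ± 0.12, adjusted p = 2.47e-10), and neither pair of groups overlapped. Tumors had medians of 6.79 and 6.76, where Tlr8 differed from AOM+DSS colon by -0.18 ± 0.13 in fl/fl mice (adjusted p = 0.301) and fell by 0.55 ± 0.13 in knockout mice (adjusted p = 0.00028).

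Tlr7 recognises single-stranded RNA and is known from plasmacytoid dendritic cells, macrophages and B cells. Its lowest, median and highest values in fl/fl mice were 5.27, 5.57 and 5.75 in untreated colon, 5.68, 6.47 and 7.08 after AOM+DSS, and 5.60, 5.83 and 6.03 in tumors. The knockout values were 5.09, 5.70 and 6.28, then 6.15, 6.91 and 7.34, then 5.49, 5.74 and 6.39. Single AOM+DSS arrays overlapped the untreated range in both genotypes. Tlr7 rose by 0.85 ± 0.13 in fl/fl colon (adjusted p = 1.09e-06) and by 1.10 ± 0.13 in knockout colon (adjusted p = 5.54e-10). In tumors it fell by 0.61 ± 0.13 and 1.002 ± 0.13 (adjusted p = 0.000133 and 2.03e-09), and its difference from untreated colon was then 0.24 ± 0.13 and 0.10 ± 0.13 (adjusted p = 0.138 and 0.555).

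Tlr9 recognises unmethylated CpG DNA and is abundant in B cells. Its mean was 6.52 ± 0.16 (SD, n = 10) in untreated fl/fl colon, 7.10 ± 0.35 (n = 10) after AOM+DSS and 6.61 ± 0.25 (n = 8) in tumors. In knockout mice the means were 6.62 ± 0.16 (n = 10), 7.44 ± 0.18 (n = 10) and 6.71 ± 0.12 (n = 9), and the AOM+DSS arrays did not overlap those of either other knockout group. It rose by 0.58 ± 0.09 (SE) and 0.82 ± 0.09 and fell in tumors by 0.49 ± 0.10 and 0.73 ± 0.10 (adjusted p between 7.9e-10 and 4.2e-05). Tlr3, the receptor of double-stranded RNA, rose by 0.32 ± 0.07 and 0.20 ± 0.07 and fell in tumors by 0.20 ± 0.07 and 0.25 ± 0.07. The knockout rise of Tlr3 lost its call without untreated knockout replicate 7 or 9, and the fl/fl fall without fl/fl tumor replicate 5 or AOM+DSS replicate 6 (adjusted p up to 0.0771 and 0.0721). Of Tlr11 and Tlr12, receptors of profilin from parasites, Tlr12 rose in knockout colon by 0.29 ± 0.09 and Tlr11 fell in knockout tumors by 0.35 ± 0.10.

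The promoter of Tlr9 is shown because its DNA holds a motif of PU.1, a transcription factor of myeloid and B cells. RefSeq promoter windows of 300 bases, from 250 before to 50 after the start of transcription (build GRCm38.p6), were read for 38 of the 48 genes, with 48 windows. Windows of the other genes, among them Cd14, Nlrc5, Tlr4 and Tlr7, were not read. Windows were searched on both strands for the PU.1 core GAGGAAGT, the gamma-activated sequence TTCNNNGAA, the core of the interferon-stimulated response element and the NF-kappaB consensus. Of all 32851 windows of this length, 3.2% held the PU.1 core, 8.3% the gamma-activated sequence, 3.44% the response element core and 4.51% the NF-kappaB consensus. Of the 48 windows of these genes, 8, 9, 4 and 6 did, in 8, 8, 4 and 5 genes, and overlapping windows of 1 gene can share a match. These shares were not tested against those of all windows. The PU.1 core was found for Aim2, Nlrp1a, Nlrp1b, Nlrp4c, Pycard, Tlr1, Tlr9 and Tlr11, and not for Tlr8 or Tlr13. Such a match describes the letters and is not a binding site. The Tlr9 window, chr9:106222348-106222647 on the plus strand, is printed 5′ to 3′ with the match in capitals, which lies on the opposite strand.
Tlr9: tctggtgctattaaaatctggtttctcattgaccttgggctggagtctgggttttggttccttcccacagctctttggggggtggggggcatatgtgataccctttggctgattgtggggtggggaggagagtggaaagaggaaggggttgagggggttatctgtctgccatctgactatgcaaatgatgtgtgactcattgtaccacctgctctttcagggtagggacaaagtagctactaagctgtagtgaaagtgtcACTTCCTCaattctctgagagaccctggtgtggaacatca

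**Figure D2:**
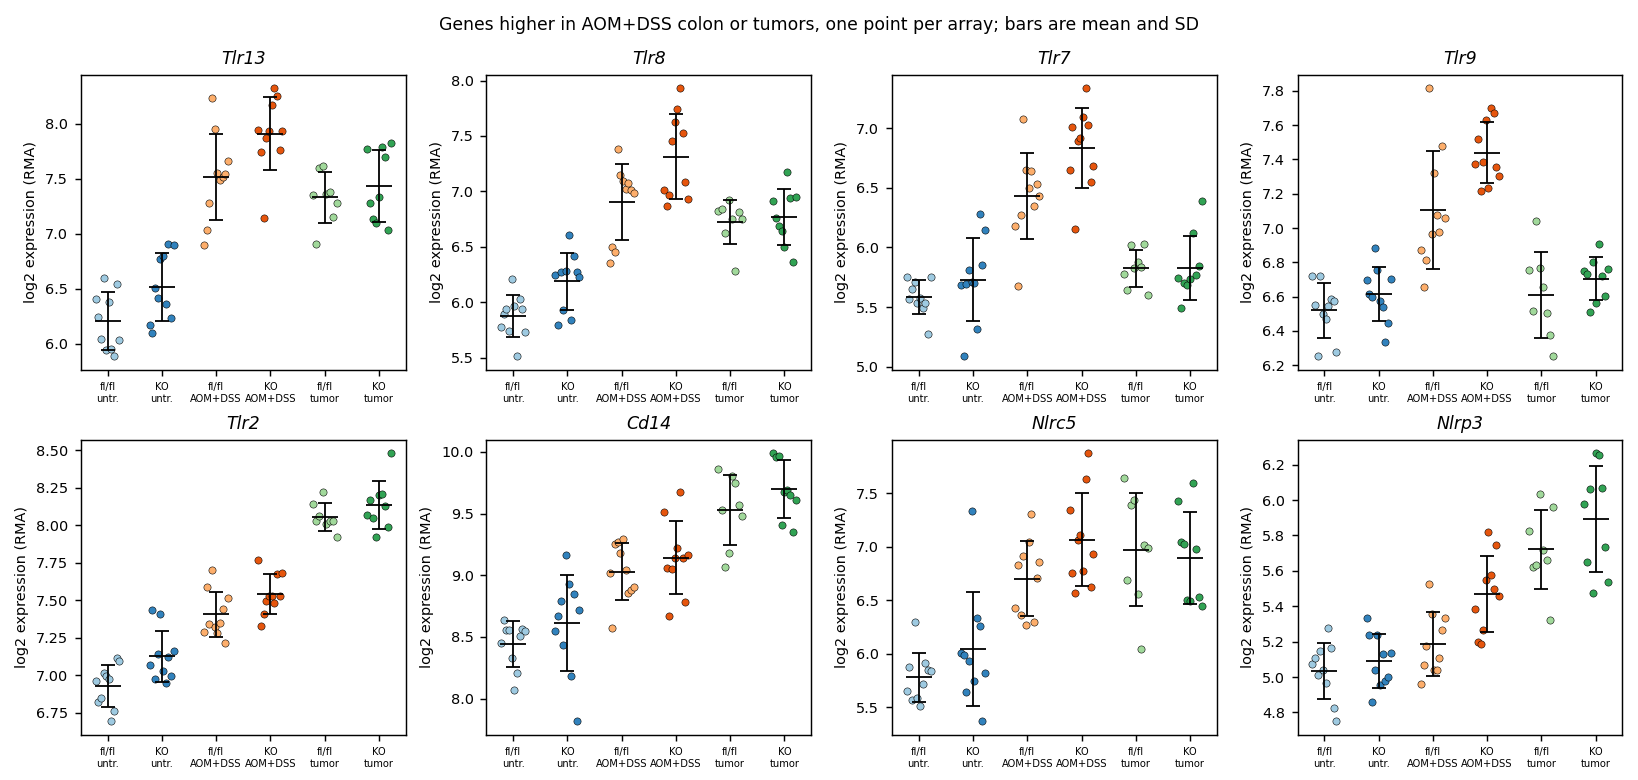
Each panel is 1 gene, each point 1 array, the vertical axis is log2 expression, and the bars are the mean and SD of the group (10, 10, 10, 10, 8 and 9 arrays), with KO for knockout. Tlr7 and Tlr9 are high in the AOM+DSS groups alone (Tlr9 means 7.10 and 7.44, against 6.52 to 6.71 elsewhere), whereas Tlr2 and Cd14 are highest in tumors (Tlr2 means 8.05 and 8.13).

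The receptors of bacterial surface products did not move as 1 group. Of the 6, Cd14, Tlr2, Tlr4 and Tlr6 rose after AOM+DSS in both genotypes, while Tlr1 fell in fl/fl and Tlr5 in knockout colon. In knockout colon the means of Tlr1 were 10.43 untreated and 10.3 after AOM+DSS. It was called lower there with array weights, or without the array of lowest correlation. In tumors against AOM+DSS colon Tlr2 and Cd14 rose and Tlr1, Tlr4 and Tlr5 fell, again in both genotypes.

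Tlr2, which binds bacterial lipoproteins as a partner of Tlr1 or Tlr6, rose at both steps in both genotypes. In fl/fl mice its lowest, median and highest values were 6.69, 6.97 and 7.12 in untreated colon, 7.22, 7.34 and 7.70 after AOM+DSS, and 7.92, 8.03 and 8.22 in tumors. Knockout mice had 6.95, 7.09 and 7.43, then 7.33, 7.53 and 7.77, then 7.92, 8.12 and 8.48. The 3 fl/fl groups did not overlap at all, and in knockout mice only untreated and AOM+DSS colon did. Tlr2 rose by 0.48 ± 0.07 and 0.41 ± 0.07 after AOM+DSS (adjusted p = 2.82e-07 and 1.44e-06) and by a further 0.65 ± 0.07 and 0.59 ± 0.07 in tumors (adjusted p = 1.39e-11 and 8.23e-11). Against untreated colon, tumors were 2.18-fold and 2.01-fold higher. Its promoter window, chr3:83841559-83841858 on the minus strand, is shown because it holds 3 matches to the NF-kappaB consensus, in 2 stretches since a pair of them overlap, and NF-kappaB is the factor that signalling from these receptors activates.
Tlr2: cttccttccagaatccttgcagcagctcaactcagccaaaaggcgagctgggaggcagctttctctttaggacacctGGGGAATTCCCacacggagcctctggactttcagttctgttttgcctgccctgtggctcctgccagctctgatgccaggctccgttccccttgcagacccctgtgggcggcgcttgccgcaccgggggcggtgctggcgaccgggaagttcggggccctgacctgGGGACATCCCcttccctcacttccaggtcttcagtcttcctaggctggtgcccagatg

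Cd14 hands lipopolysaccharide to the Tlr4 complex. Its mean went from 8.44 ± 0.18 (SD) to 9.03 ± 0.23 after AOM+DSS and 9.53 ± 0.29 in tumors of fl/fl mice, and from 8.61 ± 0.39 to 9.14 ± 0.30 and 9.70 ± 0.23 in knockout mice. Each step passed the test, with changes between 0.50 and 0.58 (SE 0.12 to 0.13) and adjusted p between 0.00016 and 0.00104. The step to tumors was not kept with the mean of smooth muscle markers as a covariate (-0.32 and -0.24, adjusted p = 0.504 and 0.619) or with that of surface colonocyte markers (0.35 and 0.41, adjusted p = 0.509 and 0.359). Tlr4 itself, the lipopolysaccharide receptor, rose by 0.20 ± 0.06 and 0.30 ± 0.06 after AOM+DSS and fell in tumors by 0.19 ± 0.07 and 0.30 ± 0.07, and its tumors did not differ from untreated colon past the threshold (adjusted p = 0.954 and 0.997). The fl/fl rise of Tlr4 lost its call without untreated replicate 7 (adjusted p = 0.0513) and the fl/fl fall without tumor replicate 5 (adjusted p = 0.0586).

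Tlr1 and Tlr6, the alternative partners of Tlr2, had opposite signs. The lowest, median and highest values of Tlr1 in fl/fl mice were 10.46, 10.60 and 10.70 in untreated colon, 10.10, 10.31 and 10.44 after AOM+DSS, and 9.09, 9.34 and 9.63 in tumors. For knockout mice these were 9.70, 10.55 and 10.58, then 10.08, 10.31 and 10.57, then 8.95, 9.36 and 9.60. No tumor array of either genotype reached any colon array of that genotype. Between tumors and AOM+DSS colon the groups did not overlap for 6 of the 48 genes in fl/fl mice (Naip6, Nlrp6, Nlrp9b, Nod1, Tlr1 and Tlr2) and 7 in knockout mice (Casp1, Nlrp6, Nod1, Pycard, Tlr1, Tlr2 and Tlr9), where 12% and 14.7% of all genes did not. Tlr1 fell in tumors by 0.97 ± 0.09 in fl/fl (1.955-fold, adjusted p = 3.44e-14) and 0.95 ± 0.08 in knockout mice (1.94-fold, adjusted p = 1.87e-14). Tlr6 rose after AOM+DSS by 0.29 ± 0.10 and 0.47 ± 0.10 and in tumors differed from AOM+DSS colon by 0.23 ± 0.11 and 0.0026 ± 0.11 (adjusted p = 0.0945 and 0.988). The difference between the 2 partners was not tested. The fl/fl rise of Tlr6 lost its call when any 1 of 8 arrays was left out (change down to 0.22, adjusted p up to 0.11).

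Tlr5, the receptor of bacterial flagellin, had lowest, median and highest values of 7.98, 8.30 and 8.53 in untreated fl/fl colon, 7.82, 8.11 and 8.36 after AOM+DSS, and 7.31, 7.61 and 7.99 in tumors. Knockout colon and tumors had 8.10, 8.32 and 8.74, then 7.87, 8.07 and 8.36, then 7.05, 7.61 and 7.95. Tumor and AOM+DSS arrays overlapped in both genotypes. Tlr5 fell in tumors by 0.46 ± 0.09 and 0.48 ± 0.09 (adjusted p = 5.92e-05 and 1.29e-05), and after AOM+DSS by 0.31 ± 0.09 in knockout colon (adjusted p = 0.00607), where the fl/fl change was -0.16 ± 0.09 (adjusted p = 0.177).

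Myd88, the adaptor that most of these receptors share, did not pass in any comparison, although with array weights it was called in knockout colon after AOM+DSS. Its group means lay between 9.19 and 9.37 and its changes between -0.10 and 0.15 over both steps and genotypes. The largest of these, in knockout colon after AOM+DSS, was 0.15 ± 0.07 (adjusted p = 0.0917).

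The cytosolic peptidoglycan sensors Nod1 and Nod2 differed in sign in fl/fl tumors against AOM+DSS colon, by the brightest probe set of each. Nod1, the more widely expressed of the pair, had lowest, median and highest values of 7.26, 7.38 and 7.48 in fl/fl AOM+DSS colon and 6.60, 6.99 and 7.16 in fl/fl tumors. The knockout values were 7.31, 7.55 and 7.84 in AOM+DSS colon and 6.61, 6.87 and 7.19 in tumors. Neither genotype's tumors overlapped its AOM+DSS colon. Nod1 fell by 0.42 ± 0.08 and 0.64 ± 0.08 (adjusted p = 2.69e-05 and 1.47e-09), and after AOM+DSS its changes were -0.06 ± 0.08 and 0.02 ± 0.08 (adjusted p = 0.649 and 0.857). Nod2, a susceptibility gene of Crohn's disease, rose by 0.25 ± 0.07 in fl/fl tumors (adjusted p = 0.00298) and by 0.18 ± 0.07 in knockout colon after AOM+DSS (adjusted p = 0.0339). Its values overlapped between the groups of each step, and its other probe set moved by 0.05 and -0.00088 in these comparisons. With the mean of its probe sets neither of these rises was called. In knockout tumors against AOM+DSS colon Nod2 changed by 0.09, without a call, and its other probe set by -0.06. Fl/fl and knockout tumors lay above untreated colon by 0.40 and 0.27, where the other probe set moved by -0.03 and -0.06. The rise in knockout colon after AOM+DSS lost its call when any 1 of 7 arrays was left out (adjusted p up to 0.0901).

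Among the 12 inflammasome sensors, 3 rose and 5 fell in fl/fl tumors, and 2 rose and 6 fell in knockout tumors. These rises, 25.0% and 16.7% of the sensors, lie near the 21.0% and 21.5% of all genes that rose, and 20.2% and 21.4% of all genes fell. Nlrp6, a sensor of the intestinal epithelium, had the largest change of all 48 genes. Its lowest, median and highest values in fl/fl mice were 9.77, 10.25 and 10.51 in untreated colon, 9.69, 10.08 and 10.58 after AOM+DSS, and 6.88, 7.94 and 9.11 in tumors. Knockout mice had 9.90, 10.25 and 10.83, then 9.33, 9.85 and 10.31, then 7.64, 7.87 and 8.43. Tumors overlapped no colon sample of the same genotype, and the fl/fl tumors spread wider than any other group (SD 0.70, against 0.21 to 0.31). Nlrp6 fell 4.35-fold in fl/fl tumors (-2.12 ± 0.17, adjusted p = 3.53e-16) and 3.497-fold in knockout tumors (-1.81 ± 0.16, adjusted p = 3.38e-14). After AOM+DSS it fell by 0.46 ± 0.16 in knockout colon (adjusted p = 0.0201, but 0.0515 without untreated knockout replicate 5), and the fl/fl change was -0.16 ± 0.16 (adjusted p = 0.503). The promoter window of Nlrp6, chr7:140920652-140920951 on the plus strand, is shown as that of the gene with the largest fall, and none of the 4 motifs was found in these letters.
Nlrp6: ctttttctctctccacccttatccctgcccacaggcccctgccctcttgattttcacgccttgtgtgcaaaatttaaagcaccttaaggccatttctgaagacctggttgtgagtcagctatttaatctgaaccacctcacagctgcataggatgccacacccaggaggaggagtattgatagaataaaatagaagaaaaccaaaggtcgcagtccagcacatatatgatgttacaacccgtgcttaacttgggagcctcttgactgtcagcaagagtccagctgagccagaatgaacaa

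The Naip proteins detect flagellin (Naip5 and Naip6) or secretion-system proteins (Naip2) and hand the signal to Nlrc4. Naip6 had lowest, median and highest values of 10.35, 10.60 and 10.78 in fl/fl AOM+DSS colon and 9.48, 9.82 and 10.18 in fl/fl tumors. For knockout mice these were 10.26, 10.46 and 10.92 in AOM+DSS colon and 9.23, 9.70 and 10.56 in tumors, so the groups overlapped in knockout mice and not in fl/fl mice. Naip6 fell by 0.78 ± 0.11 and 0.68 ± 0.10 in tumors (adjusted p = 1.52e-08 and 1.81e-07). Naip2 had 8.99, 9.22 and 9.49 in fl/fl AOM+DSS colon and 8.11, 8.61 and 9.25 in tumors, and 8.76, 9.13 and 9.32 against 7.99, 8.62 and 8.94 in knockout mice. It overlapped between groups and fell by 0.65 ± 0.11 and 0.53 ± 0.10 (adjusted p = 9.79e-07 and 2.02e-05). Naip5 rose by 0.40 ± 0.11 after AOM+DSS in fl/fl colon and fell in tumors by 0.45 ± 0.12 and 0.44 ± 0.12. Nlrc4, their partner, rose after AOM+DSS by 0.27 ± 0.07 and 0.32 ± 0.07, rose again in fl/fl tumors by 0.24 ± 0.08, and was above untreated colon in tumors by 0.52 ± 0.08 and 0.47 ± 0.08 with no overlap. The Naip genes are near-identical copies, so their probe sets may share signal.

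Nlrp3, the sensor of ion flux and membrane damage in myeloid cells, rose in tumors by 0.53 ± 0.10 and 0.42 ± 0.09 (adjusted p = 6.41e-06 and 0.000157), from means of 5.19 ± 0.18 (SD) and 5.47 ± 0.22 to 5.72 ± 0.22 and 5.89 ± 0.30. With the surface colonocyte mean as a covariate its change was -0.19 and -0.29 (adjusted p = 0.595 and 0.322), and with the smooth muscle mean 0.21 and 0.10 (adjusted p = 0.643 and 0.828). Nlrp3 also rose after AOM+DSS in knockout colon, by 0.38 (adjusted p = 0.00093). The fl/fl means were 5.04 untreated and 5.19 after AOM+DSS, without a call. Aim2, a sensor of cytosolic DNA that is not itself a NOD-like receptor, rose in tumors by 0.22 ± 0.07 and 0.25 ± 0.07. Nlrp1b, known as the target of anthrax lethal factor, fell in tumors by 0.74 ± 0.14 and 0.79 ± 0.13 (adjusted p = 1.14e-05 and 1.69e-06). Nlrp10 fell by 0.33 ± 0.13 in knockout colon after AOM+DSS, with an adjusted p of 0.0498, and the call was lost when any 1 of 38 arrays was left out. The dim Nlrp1c-ps, a pseudogene of the Nlrp1 cluster, rose by 1.06 ± 0.17 in knockout colon after AOM+DSS and fell in knockout tumors by 0.56 ± 0.17.

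Pycard, the adaptor that joins sensors to caspase-1, fell at each step in both genotypes. Its lowest, median and highest values in fl/fl mice were 9.07, 9.25 and 9.46 in untreated colon, 8.81, 9.00 and 9.17 after AOM+DSS, and 7.77, 8.15 and 8.86 in tumors. In knockout mice they were 9.01, 9.24 and 9.45, then 8.66, 8.92 and 9.03, then 7.82, 8.11 and 8.40. Untreated and tumor arrays did not overlap in either genotype and the AOM+DSS medians lay between theirs. Pycard fell after AOM+DSS by 0.26 ± 0.08 and 0.32 ± 0.08 (adjusted p = 0.0162 and 0.00116), and in tumors by a further 0.81 ± 0.09 and 0.80 ± 0.08 (adjusted p = 5.66e-12 and 3.32e-12). With every array shifted to 1 median, the fl/fl fall after AOM+DSS was no longer called. Its window, chr7:127993818-127994117 on the minus strand, is shown because it holds the same PU.1 core on the opposite strand as the Tlr9 window, although Pycard fell after AOM+DSS and Tlr9 rose.
Pycard: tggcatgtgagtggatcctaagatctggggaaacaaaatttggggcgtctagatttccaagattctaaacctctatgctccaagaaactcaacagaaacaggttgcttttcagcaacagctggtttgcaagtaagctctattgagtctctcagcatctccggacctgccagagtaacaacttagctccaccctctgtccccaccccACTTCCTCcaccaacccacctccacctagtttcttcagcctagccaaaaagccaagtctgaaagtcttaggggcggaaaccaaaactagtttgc

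Casp1 encodes caspase-1. Its lowest, median and highest values in fl/fl mice were 10.72, 11.03 and 11.26 in untreated colon, 10.85, 11.16 and 11.38 after AOM+DSS, and 9.85, 10.32 and 11.18 in tumors. In knockout mice they were 10.92, 11.01 and 11.31, then 10.77, 10.99 and 11.12, then 10.05, 10.45 and 10.54. Knockout tumors did not overlap knockout colon, while the highest fl/fl tumor lay within the range of fl/fl colon. Casp1 fell in tumors by 0.73 ± 0.09 and 0.60 ± 0.09 (adjusted p = 1.48e-09 and 9.78e-08), with changes of 0.09 ± 0.09 and -0.07 ± 0.09 after AOM+DSS (adjusted p = 0.488 and 0.591). Casp4, which encodes the receptor of cytosolic lipopolysaccharide, passed in no comparison and changed by 0.06 ± 0.11 and -0.05 ± 0.10 in tumors (adjusted p = 0.699 and 0.738).

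**Figure D3:**
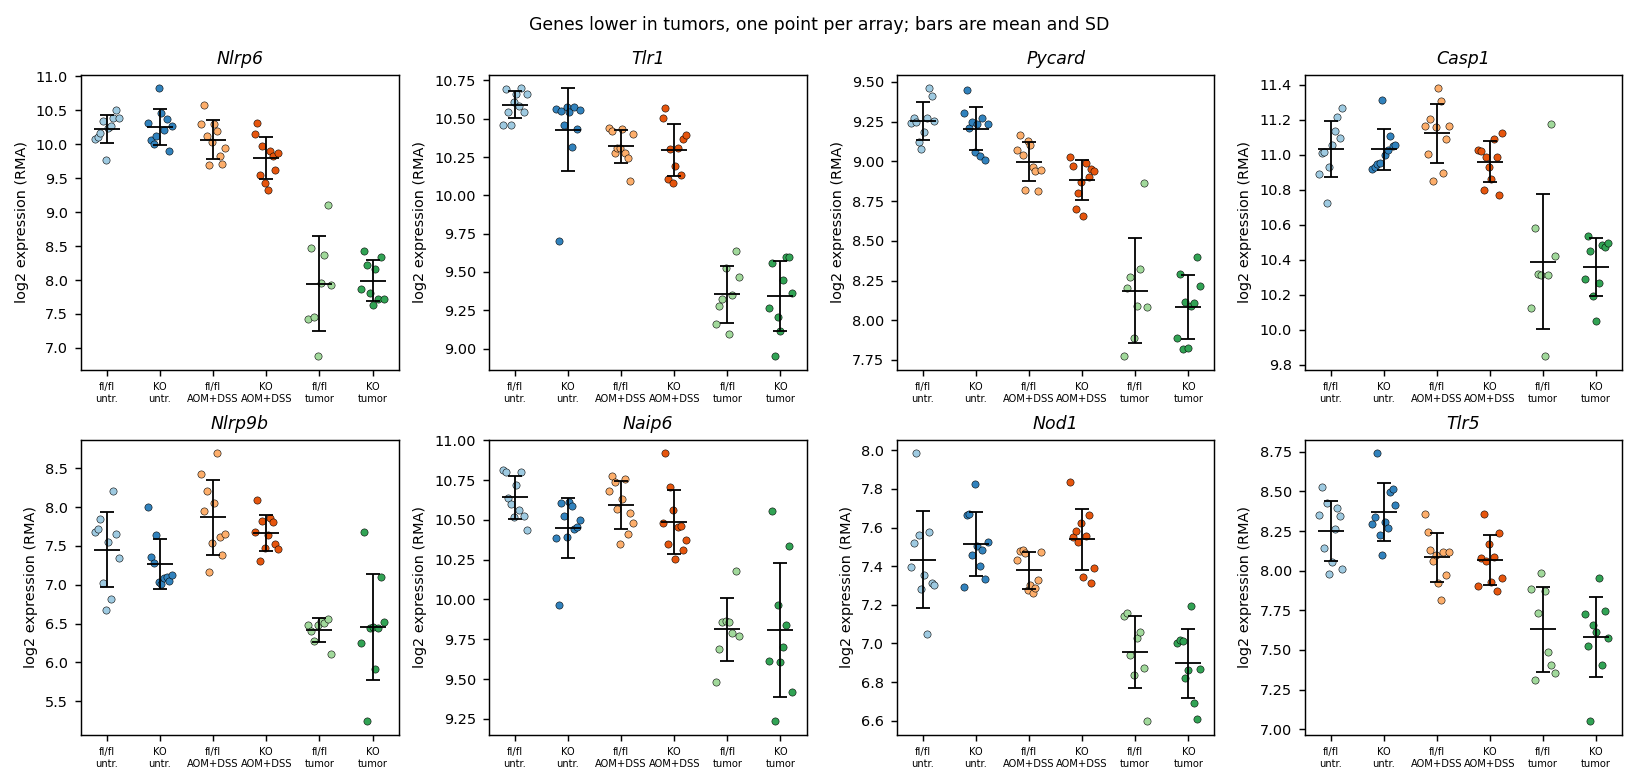
Each panel is 1 gene, each point 1 array, the vertical axis is log2 expression, and the bars are the mean and SD of the group (10, 10, 10, 10, 8 and 9 arrays), with KO for knockout. Tumors of both genotypes are lowest in all 8 panels, and the distance is widest for Nlrp6 (means 7.95 and 7.99 in tumors, 9.80 to 10.26 in colon).

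The regulatory NOD-like receptors include Nlrc5, the transactivator of MHC class I genes and a target of interferon. Nlrc5 had lowest, median and highest values of 5.51, 5.78 and 6.29 in untreated fl/fl colon and 6.26, 6.77 and 7.30 after AOM+DSS, and 5.37, 5.96 and 7.33 against 6.57, 7.00 and 7.87 in knockout colon. The overlap in knockout colon came from the untreated replicate 5 at 7.33. Nlrc5 rose by 0.92 ± 0.18 and 1.02 ± 0.18 (adjusted p = 0.000165 and 1.29e-05). In tumors its medians were 7.00 and 6.98. Interferon response genes moved with it: 11 of 12 genes of the interferon-gamma list and 10 of 11 of the type I list rose after AOM+DSS in each genotype, and the part of either in the Nlrc5 result was not tested.

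Nlrx1, a mitochondrial member that dampens signalling, had lowest, median and highest values of 7.03, 7.41 and 7.67 in fl/fl AOM+DSS colon and 6.59, 7.00 and 7.18 in tumors, and 7.17, 7.34 and 7.50 against 6.46, 6.87 and 7.38 in knockout mice. The groups overlapped, and Nlrx1 fell by 0.44 ± 0.08 and 0.43 ± 0.08 (adjusted p = 1.15e-05 and 8.75e-06). Nlrc3, an inhibitor of Toll-like receptor and DNA-sensor signalling, had 5.52, 5.80 and 5.96 in fl/fl AOM+DSS colon and 5.69, 6.13 and 6.38 in tumors, and 5.67, 5.96 and 6.35 against 5.90, 6.13 and 6.50 in knockout mice. It rose by 0.32 ± 0.08 in fl/fl tumors (adjusted p = 0.000928) and changed by 0.16 ± 0.08 in knockout tumors (adjusted p = 0.0943, called with array weights). In knockout colon Nlrc3 had already risen after AOM+DSS, by 0.31 (adjusted p = 0.00134). The fl/fl means were 5.80 untreated and 5.79 after AOM+DSS, without a call. Against untreated colon, tumors were higher by 0.31 in fl/fl and 0.47 in knockout mice (adjusted p = 0.00127 and 9.89e-07). Tumors overlapped AOM+DSS colon in both genotypes, while knockout tumors lay above all untreated knockout arrays, of which the highest was 5.85. Nlrp12 passed between knockout tumors and untreated knockout colon alone, where it was higher by 0.30 ± 0.09. Its change in knockout colon after AOM+DSS, 0.21 ± 0.08, narrowly missed the threshold (adjusted p = 0.0511) and passed with array weights, among other settings.

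Nlrp9b, 1 of the 13 germline-type Nlrps by family and otherwise known as a sensor of viral RNA in intestinal epithelium, was bright enough to be followed. Its lowest, median and highest values in fl/fl mice were 6.67, 7.60 and 8.21 in untreated colon, 7.17, 7.80 and 8.70 after AOM+DSS, and 6.11, 6.48 and 6.56 in tumors. In knockout mice they were 7.01, 7.11 and 8.01, then 7.31, 7.66 and 8.09, then 5.24, 6.45 and 7.68. No fl/fl tumor reached a fl/fl colon array, while knockout tumors overlapped knockout colon. Nlrp9b fell in tumors by 1.45 ± 0.20 and 1.22 ± 0.19 (adjusted p = 1.12e-08 and 2.99e-07). Another 2 genes of this family passed after AOM+DSS in fl/fl colon, both lower: the dim Nlrp14, by 0.31 ± 0.08, with values of 3.79 to 4.29 untreated and 3.60 to 3.88 after AOM+DSS, and Nlrp4b, by 0.37 ± 0.14 (adjusted p = 0.0448), with values of 5.03 to 5.86 and 4.85 to 5.42. The Nlrp4b call was lost when any 1 of 13 arrays was left out (adjusted p up to 0.0954). Of the 13 genes, 10 passed in no tissue comparison, namely Nlrp2, Nlrp4a, Nlrp4c, Nlrp4d, Nlrp4e, Nlrp4f, Nlrp4g, Nlrp5, Nlrp9a and Nlrp9c, as did Myd88, Casp4, Naip3 and Nlrp1a. That made 14 of the 48, and how many of all genes passed in no tissue comparison was not counted.

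Tumors against untreated colon gave 23 of 48 genes in fl/fl mice (11 higher, 12 lower; 45.4% of all genes passed, 22.9% higher and 22.5% lower) and 24 in knockout mice (13 higher, 11 lower; 47.3%, 23.6% and 23.7%). Of these, 22 passed in the same direction in both genotypes, 11 higher and 11 lower, and the same count over all genes was not made. The groups did not overlap for 12 of the 48 genes in each genotype (17.2% and 18.0% of all genes). Nlrp6 fell 4.84-fold and 4.82-fold, Tlr1 2.36-fold and 2.12-fold, and Pycard 2.10-fold and 2.18-fold. Cd14 rose 2.12-fold and 2.13-fold.

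Cell type markers moved with these changes. All 10 macrophage genes rose after AOM+DSS in both genotypes (median 0.83 and 0.84), and their mean per array spanned 8.01 to 8.58 in untreated and 8.73 to 9.46 in AOM+DSS fl/fl colon, and 8.07 to 8.84 and 9.02 to 9.53 in knockout colon. Of 9 B cell genes, 8 rose in fl/fl and 9 in knockout colon (median 0.94 and 1.81), and all 9 fell in tumors of both genotypes (median -1.21 and -1.72), where the list mean spanned 5.60 to 7.65 and 5.70 to 6.62. Of 12 neutrophil genes 11 and 12 rose, as did 8 and 7 of 13 squamous epithelium genes. Between AOM+DSS colon and tumors 6 and 4 of the neutrophil genes rose and 1 fell in each genotype, and the list mean went from 5.84 to 7.07 and 7.69 in fl/fl mice and from 5.76 to 7.56 and 8.04 in knockout mice. Tlr2, Cd14 and Nlrp3 likewise had their highest group means in tumors. In the mast cell list, of 9 genes, 7 rose and 1 fell at each step in each genotype, with list means of 5.49, 6.48 and 7.44, and 5.55, 6.71 and 7.61. Of 10 T cell genes, 6 and 9 rose after AOM+DSS and 2 and 7 fell in tumors, with list means of 6.05, 6.63 and 6.47, and 6.11, 6.96 and 6.49. Of 10 fibroblast genes, 8 and 9 rose after AOM+DSS and 8 and 9 fell in tumors, with list means of 9.51, 9.96 and 9.41, and 9.54, 10.20 and 9.295. Of 8 endothelium genes, 5 and 6 rose and then 4 and 7 fell. The part of neutrophil, mast cell, T cell, fibroblast and endothelium genes in the receptor changes was not tested. With the mean of the macrophage list as a covariate, none of the 16 and 20 AOM+DSS calls was kept, and of all genes 0 and 12 were called in fl/fl and knockout colon. Tlr13 then changed by 0.22 and 0.24, and Tlr7 by -0.11 and 0.09. With the B cell list instead, a covariate added with the results in view, 12 and 8 genes passed, and the rise of Tlr9 was 0.31 and 0.32 (adjusted p = 0.0136 and 0.0628). With the squamous list, 14 and 21 passed.

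Within a single group, where treatment is constant, some receptors followed these lists over the arrays. Of 72 such relations, Tlr13 and the macrophage list in fl/fl AOM+DSS colon had Pearson's r of 0.914 and Spearman's rho of 0.77 (n = 10, permutation p = 0.0005 and 0.0129, adjusted p = 0.0121), and r was 0.807 without the 2 arrays farthest from the median of the list. Over the 6 groups r lay between 0.551 and 0.914, with an adjusted p under 0.05 in 3. For Tlr9 and the B cell list in the same group r was 0.878 and rho 0.964 (n = 10, permutation p = 0.00075 and 6e-05, adjusted p = 0.0121), and r was 0.801 without 2 arrays. Over the 6 groups that r lay between 0.404 and 0.878, with an adjusted p under 0.05 in 1. Tlr9 followed the macrophage list about as closely in fl/fl AOM+DSS colon (r of 0.888, permutation p = 0.00057, adjusted p = 0.0121). Tlr13 and the B cell list had r of 0.762 there (permutation p = 0.0143, adjusted p = 0.0618). In fl/fl and knockout tumors, Tlr9 had r of 0.772 and 0.772 with the macrophage list, and 0.733 and 0.404 with the B cell list. For Tlr9 these relations thus do not tell the lists apart. In untreated and AOM+DSS knockout colon Tlr13 had r of 0.88 and 0.777 with the macrophage list. With the B cell list its r was 0.208 and 0.234 there. Over the 6 groups Tlr8 had r between 0.022 and 0.916 with the macrophage list, and between -0.201 and 0.764 with the B cell list. Either list had an adjusted p under 0.05 with Tlr8 in 1 group. Whether a gene followed 1 list more closely than the other was not tested.

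**Figure D4:**
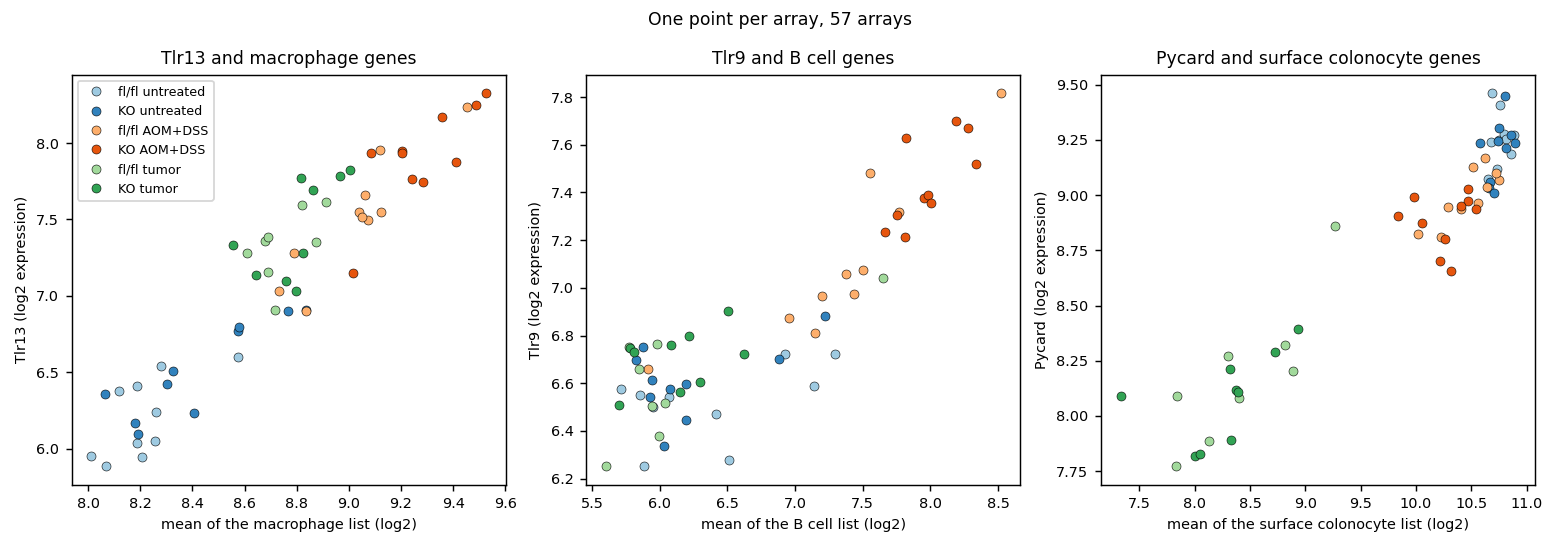
Each point is 1 of the 57 arrays, the horizontal axis is the mean log2 level of a marker list and the vertical axis the log2 expression of a receptor or adaptor gene, coloured by group (KO, knockout). The AOM+DSS arrays lie at high macrophage means (8.73 to 9.53) with high Tlr13, and the tumors at low surface colonocyte means (7.33 to 9.27) with low Pycard.

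In tumors the markers of surface colonocytes, the mature absorptive cells, fell: 8 of 9 in fl/fl and 9 of 9 in knockout mice (median -1.16 and -1.38). Their list mean spanned 7.83 to 9.27 and 7.33 to 8.93 in tumors, against 10.02 to 10.75 and 9.84 to 10.54 in AOM+DSS colon. All 10 smooth muscle genes fell in both genotypes (median -1.70 and -1.61), with list means of 9.20 to 10.17 and 8.73 to 10.19 in tumors against 10.85 to 11.54 and 10.72 to 11.35. Of 10 goblet cell genes 6 and 7 fell, and their part in these results was not tested. With the surface colonocyte mean as a covariate, a choice made after seeing the data, 8 and 9 of the 48 genes passed between tumors and AOM+DSS colon, and with the smooth muscle mean 6 and 9. Of all genes, 2890 and 3942 passed with the first and 1890 and 2040 with the second, against 9143 and 9511 without a covariate. With the first, the change of Nlrp6 was -0.83 and -0.55 (adjusted p = 0.0793 and 0.247), that of Pycard -0.05 and -0.06, and that of Casp1 0.03 and 0.14. With the second, the change of Nlrp6 was -2.23 and -1.91, and Pycard changed by -0.59 and -0.58, with an adjusted p between 4.9e-06 and 0.0213 for the pair of genes. The rise of Tlr2 in tumors passed in both genotypes with either (0.48 and 0.42, then 0.65 and 0.59), whereas the rises of Cd14, Nlrp3 and Aim2 passed with neither. Neither list mean overlapped between tumors and AOM+DSS colon, and such a covariate widens the error of every change. A lost call can therefore reflect that wider error alone. Within fl/fl tumors, Pycard and the surface colonocyte list had r of 0.846 and rho of 0.786 (n = 8, exact permutation p = 0.00389 and 0.0279, adjusted p = 0.0216), with r of 0.738 without 2 arrays. In knockout tumors r was 0.567 (n = 9, exact permutation p = 0.108, adjusted p = 0.235), and over the 6 groups it lay between 0.0679 and 0.846, with an adjusted p under 0.05 in 2.

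Other genes of the pathways were read from lists, whose counts stand against 12.2% and 16.0% of all genes higher and 10.5% and 14.2% lower after AOM+DSS in fl/fl and knockout colon, and 21.0% and 21.5% higher and 20.2% and 21.4% lower in tumors. Of 10 co-receptors and trafficking factors of Toll-like receptors, 7 rose and none fell after AOM+DSS in each genotype, and in tumors none rose and 5 and 6 fell. Ly86, the partner of Cd180, rose by 1.18 ± 0.13 and 1.40 ± 0.13, and Lgmn, a protease that processes endosomal receptors, by 0.68 ± 0.08 and 0.81 ± 0.08. In tumors Cd36, a lipid receptor that assists Tlr2, fell by 1.64 ± 0.17 and 1.27 ± 0.16. Of 17 adaptors, kinases and transcription factors, 5 and 6 rose after AOM+DSS and 0 and 2 fell, and in tumors 5 and 7 rose and 2 and 3 fell. Irf7, a factor of the interferon response, rose by 0.93 ± 0.15 and 0.65 ± 0.15, and in tumors Ikbkb, a kinase that activates NF-kappaB, rose by 0.44 ± 0.06 and 0.38 ± 0.06.

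Of 11 negative regulators, 4 and 6 rose after AOM+DSS and 0 and 2 fell, and in tumors 3 and 2 rose (27.3% and 18.2%, near the share of all genes) and 1 and 4 fell. Pik3ap1 rose by 0.87 ± 0.11 and 1.24 ± 0.11 after AOM+DSS. Of 12 genes of NOD signalling, 3 and 7 rose and none fell after AOM+DSS, and in tumors 3 and 2 rose and 3 and 4 fell, and the rises (25.0% and 16.7%) were again near it. Erbin, a binding partner of Nod2, fell in tumors by 0.43 ± 0.05 and 0.52 ± 0.05, and Slc15a3, a transporter of muramyl peptides, rose after AOM+DSS by 0.69 ± 0.14 and 1.02 ± 0.14.

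Of 14 regulators, substrates and outputs of inflammasomes, 7 and 9 rose after AOM+DSS and 2 and 2 fell, and in tumors 2 and 3 rose and 4 and 8 fell. The 2 cytokines that caspase-1 matures went opposite ways. Il1b rose by 2.97 ± 0.33 and 3.29 ± 0.33 after AOM+DSS and by a further 1.29 ± 0.35 and 0.97 ± 0.34 in tumors. Il18, which epithelial cells make at rest, fell by 0.72 ± 0.13 and 0.41 ± 0.13 and in tumors by 0.44 ± 0.14 and 0.48 ± 0.13. P2rx7, the ATP-gated channel upstream of Nlrp3, fell in tumors by 0.62 ± 0.07 and 0.81 ± 0.07. Of 8 other cytosolic nucleic acid sensors, 6 rose and 1 fell after AOM+DSS in each genotype, and in tumors 2 and 3 rose and 4 fell. Sting1, the adaptor of cytosolic DNA sensing, rose in tumors by 2.11 ± 0.13 and 1.87 ± 0.12, while Ifih1, a sensor of long double-stranded RNA, fell by 0.81 ± 0.09 and 0.997 ± 0.08.

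Few of these genes passed between the genotypes. Between untreated knockout and fl/fl colon none of the 48 passed in limma (0.00451% of all genes did, that is Insr alone). An unadjusted p under 0.05 was found for 6 of the 48 and for 5.02% of all genes. The smallest p belonged to Casp4, higher by 0.30 ± 0.10 (95% interval 0.10 to 0.51, adjusted p = 0.654), Tlr2, by 0.20 ± 0.07 (0.07 to 0.33, adjusted p = 0.662), and Nlrp14, by -0.21 ± 0.08 (adjusted p = 0.803). After AOM+DSS 11 of the 48 had an unadjusted p under 0.05 in limma, and 13.1% of all genes did. By adjusted p 1 of 48 passed, where 0.541% of all genes did. This was the dim pseudogene Nlrp1c-ps, with a mean of 5.61 ± 0.48 (SD, n = 10) in knockout and 4.87 ± 0.50 (n = 10) in fl/fl colon, ranges of 4.73 to 6.12 and 4.14 to 5.79, and a difference of 0.73 ± 0.17 (95% interval 0.40 to 1.075, adjusted p = 0.0315). The call was lost when any 1 of 9 arrays was left out (adjusted p up to 0.111). Tlr9 and Tlr8 followed, higher in knockout colon by 0.33 ± 0.09 and 0.41 ± 0.12 (adjusted p = 0.0692 and 0.0883). With array weights they passed, together with Tlr7. None of the 48 passed with only the groups compared, or with the macrophage, B cell, smooth muscle or surface colonocyte covariate. In AOM+DSS colon the macrophage list mean was 9.28 in knockout and 9.03 in fl/fl mice, and the B cell list mean 7.98 and 7.34. The part of these lists in the genotype differences was not tested.

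Between knockout and fl/fl tumors none of the 48 passed (0.00902% of all genes did). None had an unadjusted p under 0.05 in limma (4.46% of all genes did), and the changes lay between -0.12 and 0.17. The median half-width of the 95% interval was 0.21. The difference between the genotypes in the AOM+DSS response, and that in the step to tumors, passed for none of the 48 genes and for 0% of all genes. An unadjusted p under 0.05 was found for 3 and 3 of the 48, and for 6.09% and 6.63% of all genes. The smallest p of the first belonged to Nlrc3, by 0.32 ± 0.11 (adjusted p = 0.783), and of the second to Nlrp1c-ps, by -0.71 ± 0.25 (adjusted p = 0.561).

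**Figure D5:**
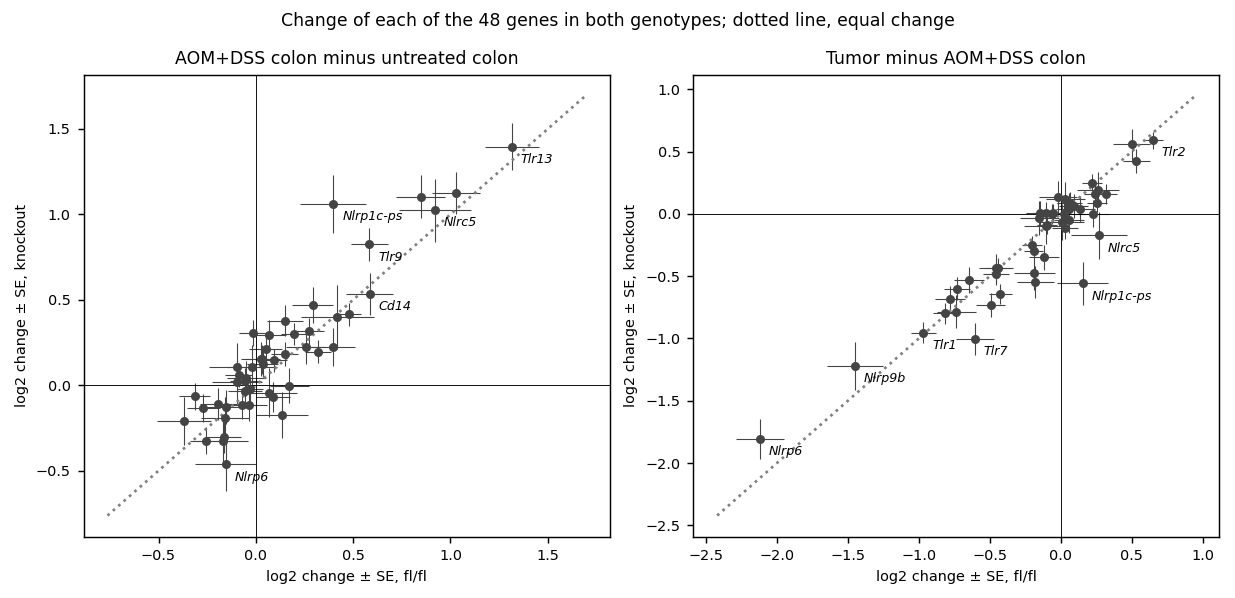
Each point is 1 of the 48 genes, with its log2 change and standard error in fl/fl mice on the horizontal axis and in knockout mice on the vertical axis, after AOM+DSS on the left and in tumors against AOM+DSS colon on the right. Points lie near the dotted line of equal change, and Nlrp1c-ps lies off it in both panels (0.40 against 1.06, and 0.16 against -0.56).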

How the data were processed

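Total RNA of 57 distal colon or tumor samples was hybridised to Affymetrix arrays, 1 array a sample. The deposited values are log2 expression values made by the authors with RMA (background correction, quantile normalization and probe set summary), per the submitters' processing notes; the RMA version is not given in the sources used here. Quantile normalization gives every array nearly the same distribution, and summaries of dim probe sets compress differences. Of 41345 probe sets, 23521 carried a single gene symbol, 1814 several and 16010 none; the latter were left out. The brightest probe set stood for each of the 22180 genes.

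A linear model with a mean for each of the 6 groups was fitted to all 57 arrays in limma 3.58.1 (R 4.3.3), with 51 residual degrees of freedom and a moderated variance (lmFit, contrasts.fit, eBayes). Adjusted p-values are Benjamini-Hochberg values over the 22180 genes, with a threshold of 0.05, and are limma's wherever no permutation is named. They measure the spread between samples labelled as biological replicates. Groups came from the titles. The members and all gene lists were chosen with earlier results of these data known. Per-sample ranges were given for up to 3 genes of each role with the smallest adjusted p, genes passing in a tissue comparison could be named, and from genotype comparisons the passing genes or the 3 with the smallest p. From each pathway list up to 3 genes with the smallest adjusted p were eligible. The means of Tlr9, Cd14 and Nlrp3, their place in a plot, and the values of Myd88 and Casp4, which passed nowhere, were added after they were seen. Correlations used numpy 2.4.6 and pandas 2.3.3.

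Alternatives were a shift to 1 median, a further quantile normalization, leaving out genes under a mean of 5, the mean of probe sets, trend and robust moderation, only the groups compared, array weights, leaving out the array with the lowest correlation or each array in turn, a replicate block, and marker list means as covariates. Simulated data took each gene's mean in untreated fl/fl colon and its spread within the 6 groups, with noise drawn independently for each gene. Of the 22180 genes, 200 were changed in the fl/fl AOM+DSS arrays, fewer than passed in the real comparison. There, 83% of the changes of 0.5 and 99% of the changes of 1 (log2) were recovered, with 7 false calls. After subtraction of each gene's group mean, same-numbered samples of different groups had a mean correlation between -0.0392 and 0.0959. For samples with unlike numbers it lay between -0.0121 and 0.00445. The labels do not tie the numbers to a shared mouse.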

Additional observations from a re-analysis of the deposited data

Results flagged for a closer look

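Among the 20 genes described array by array, 11 of 120 groups held 1 array that stood apart from the others of its group, by the gap to its nearest neighbour over the group's range (Dixon's test at 95%). Chance alone flags about 1 in 20 groups. In untreated knockout colon, replicate 2 was lowest for Tlr1 (9.70, next 10.32) and Naip6 (9.97, next 10.38), and it was also the array with the lowest correlation to its group. Replicate 5 of that group was highest for Casp1 (11.31, next 11.10) and Nlrc5 (7.33, next 6.33). In untreated fl/fl colon, replicate 4 was lowest for Naip2 (8.49, next 8.91) and highest for Nlrc5 (6.29, next 5.91). In knockout colon after AOM+DSS, replicate 3 was lowest for Tlr13 (7.15, next 7.74) and highest for Nlrp4b (6.24, next 5.25), and replicate 2 was lowest for Nod2 (6.08, next 6.27). Among fl/fl tumors, replicate 6 was lowest for Tlr8 (6.28, next 6.62) and replicate 7 highest for Naip2 (9.25, next 8.65).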

How the results depend on the processing

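Of the 131 calls of the 48 genes over the comparisons, all 131 held with array weights, with trend and robust moderation, without the array of lowest correlation and with the replicate number as a block; 128 held with a shift to 1 median or only the groups compared, 129 with further quantile normalization, 127 with the mean of probe sets, 124 of the 124 that could be tested without genes under a mean of 5, and 125 with the squamous covariate. The replicate block gave 16, 20, 23 and 24 genes for AOM+DSS and then tumor against AOM+DSS colon, in fl/fl and knockout mice, as without it. Leaving out 1 array gave 14 to 17, 18 to 22, 22 to 24 and 24 to 25 genes in the same order, 23 to 25 and 24 to 26 for tumor against untreated colon, 0 to 7 for knockout against fl/fl AOM+DSS colon, and 0 in the other genotype comparisons; 10 calls were lost without some array.

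That 1 genotype call became 0 without dim genes, with only the groups compared and with the macrophage, B cell, smooth muscle or surface colonocyte covariate, and 4 with array weights. The macrophage covariate left 0 and 0 calls after AOM+DSS, and the B cell covariate 8 in knockout colon. The smooth muscle covariate left 6 and 9 calls for tumor against AOM+DSS colon and 6 and 6 against untreated colon. The surface colonocyte covariate left 8 and 9, and 6 and 4. Calls over all genes fell too. For tumor against untreated colon they went from 10063 and 10486 to 2743 and 2427 with the smooth muscle covariate. With the surface colonocyte covariate they were 2171 and 2076. The B cell and surface colonocyte covariates were chosen after seeing the data. The macrophage, B cell, smooth muscle and surface colonocyte covariates turned 6, 1, 10 and 29 calls to the other sign, and the cause was not tested.

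With the macrophage covariate these were, after AOM+DSS in fl/fl colon, Nlrp4b 0.016, Tlr6 -0.070 and Tlr7 -0.11; in knockout colon Tlr12 -0.095; in knockout tumors against AOM+DSS colon Tlr13 0.17; and in fl/fl tumors against untreated colon Nlrp1c-ps -0.024. With the B cell covariate Nlrp1c-ps was 0.043 in knockout tumors against AOM+DSS colon.

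With the smooth muscle covariate, tumors against AOM+DSS colon had Cd14 -0.32, Nlrc4 -0.018, Nod2 -0.028 and Tlr5 0.18 in fl/fl mice, and Cd14 -0.24, Tlr11 0.00074 and Tlr5 0.13 in knockout mice. Tumors against untreated colon had Tlr5 0.012 in fl/fl mice, and Nlrx1 0.019 and Nod2 -0.036 in knockout mice.

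With the surface colonocyte covariate, tumors against AOM+DSS colon had Casp1 0.032, Naip2 0.10, Naip5 0.17, Nlrc3 -0.068, Nlrp3 -0.19 and Tlr3 0.18 in fl/fl mice, and Casp1 0.14, Naip2 0.20, Naip5 0.17, Nlrp3 -0.29 and Tlr3 0.12 in knockout mice. Tumors against untreated colon had Casp1 0.23, Naip2 0.46, Nlrc3 -0.13, Nlrc5 -0.00012, Nlrp3 -0.14, Nlrp9b 0.32 and Tlr8 -0.069 in fl/fl mice. In knockout mice they had Casp1 0.26, Naip2 0.60, Naip6 0.16, Nlrc3 -0.0019, Nlrc5 -0.41, Nlrp12 -0.22, Nlrp1c-ps -0.015, Nlrp3 -0.083, Nlrp9b 0.62, Tlr13 -0.034 and Tlr8 -0.40.

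The number of arrays limits the precision, and 14 of the 48 genes were dim, so that a missing call says little about them. Tumors and colon samples differ in cell makeup, and a covariate that differs between groups widens the error of every change.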
